A study of Mus musculus with 20 samples.

Results

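The left ventricle of newborn mice that breathed pure oxygen was compared here with that of pups kept in room air, across all genes with enough reads to test. The comparison holds 10 of the 20 libraries of the series. These are the 5 libraries titled as hyperoxic left ventricle (numbers 1, 2, 4, 5 and 6) and the 5 titled as room-air left ventricle (numbers 1 to 5), chosen by their titles alone. All pups were C57BL/6J, an inbred wild-type strain with no transgene or mutation named in the labels. The hyperoxic pups were kept in 100% oxygen and the room-air pups in 21% oxygen from birth to postnatal day 4, when the heart was taken and the ventricle separated from the atrium by hand. Nursing dams changed places between the 2 oxygen levels every 24 h. Each library came from 1 individual mouse, and the polyadenylated RNA of the whole ventricle was sequenced. The remaining 10 libraries, of the left atrium under the same 2 conditions, are used to test where the chambers responded differently, for the atrial level of Myl7 and in 1 alternative fit of all 20 libraries.

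A ventricle holds cardiomyocytes, which contract, and a larger number of smaller cells: capillary endothelium, pericytes and smooth muscle around the vessels, fibroblasts that lay down matrix, and resident macrophages. In rodents the days after birth are when cardiomyocytes leave the cell cycle, when fuel use turns from glucose and lactate to fatty acids, and when the capillary bed expands quickly. Oxygen enters this biology directly, because prolyl hydroxylases use it to mark hypoxia-inducible factors for destruction, and because an excess of it raises reactive oxygen species that thioredoxin, peroxiredoxin and superoxide dismutase systems remove. In a bulk library, fewer cells of a type and less RNA per cell cannot be told apart.

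Levels below are CPM, the reads of a gene relative to a library size scaled by the trimmed mean of M-values. Means carry the SD over n = 5 libraries a group. Where the value of every library is given, the order is hyperoxia 1, 2, 4, 5 and 6, then room air 1 to 5. A log2 difference is hyperoxia minus room air with its standard error, and the threshold for passing was an adjusted p of 0.05, from edgeR's quasi-likelihood test and the Benjamini-Hochberg method over all 15256 genes tested. Positions are those of GRCm38.

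Several measured properties of the libraries moved with oxygen, and bear on every result that follows. Total counts ran from 26510081 to 34428693. Hyperoxic library 4 listed 16866 genes with a count, against 19068 to 22197 in the others. Along the first principal component (38.9% of variance) it lay farthest to one side and room-air library 4 farthest to the other. Sex is not in the labels. All 5 room-air libraries and hyperoxic libraries 2 and 6 held more Y-linked than Xist reads, and hyperoxic libraries 1, 4 and 5 held fewer. Xist accounted for 340 and 593 counts in hyperoxic libraries 2 and 6, and for 0 to 27 counts in the room-air libraries. The length slope of a library relates read share to exon length, and a negative slope means more reads on short transcripts. It was 0.0376 to 0.0986 in hyperoxia and -0.219 to 0.0229 in room air, without overlap. Reads of mitochondrially encoded genes made up 9.66% of room-air library 4 and 14.7% to 21.0% of the other 9. The atrial light chain Myl7 stood at 119, 44.8, 6.47, 2.46 and 8.12 CPM in the hyperoxic and at 494, 18.0, 288, 66.0 and 210.0 CPM in the room-air libraries. The atria of the series averaged 7351 CPM (hyperoxia) and 7006 CPM (room air). The summed level of 18 atrial cardiomyocyte markers was 784 to 1400.3 CPM under hyperoxia against 1550.3 to 2478 CPM, again without overlap.

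Ventricular markers were high in every library. Myl2, the regulatory light chain of ventricular myosin, stood at 14649 ± 1323 CPM under hyperoxia against 18911 ± 4860.1 CPM (log2 difference -0.37 ± 0.16, adjusted p = 0.120). The 7 lung epithelial markers summed to between 0.151 and 5.98 CPM in each library, and none of them was high enough to be tested.

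Hyperoxia was associated with many small differences and few large ones. Of the 15256 genes, 2246 passed (14.7%). The higher genes numbered 1061 (6.95%) and the lower genes 1185 (7.77%). A difference of at least 2-fold was reached by 75 of the higher and 86 of the lower genes. The values of the 2 groups did not overlap for 2035 genes (13.3%), with 6.92% of all genes separate and higher and 6.42% separate and lower. The median log2 difference over all genes was 0.00, and it was -0.0063 and -0.022 under RLE and upper-quartile scaling.

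With sex class as a covariate 39 genes passed, with the length slope as a covariate 55, and with the 2 together 2. With the Myl7 level as a covariate 88 passed. Among the Y-rich libraries, those whose Y-linked reads outnumber those of Xist (2 against 5), 21 genes passed. All 2246 genes kept their direction with the sex covariate, and 92.2% of them did with the length slope. Leaving out hyperoxic library 5 left 846 genes passing, and leaving out hyperoxic library 6, room-air library 1 or room-air library 2 left 1227, 1321 and 1083. Of the 3 fits with a covariate for sex class, length slope or Myl7, those in which a gene kept its call are given below, and a gene printed with a standard error for which none is mentioned passed in none of the 3. The part of sex, length slope and atrial tissue in each result was not tested further.

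**Figure D1:**
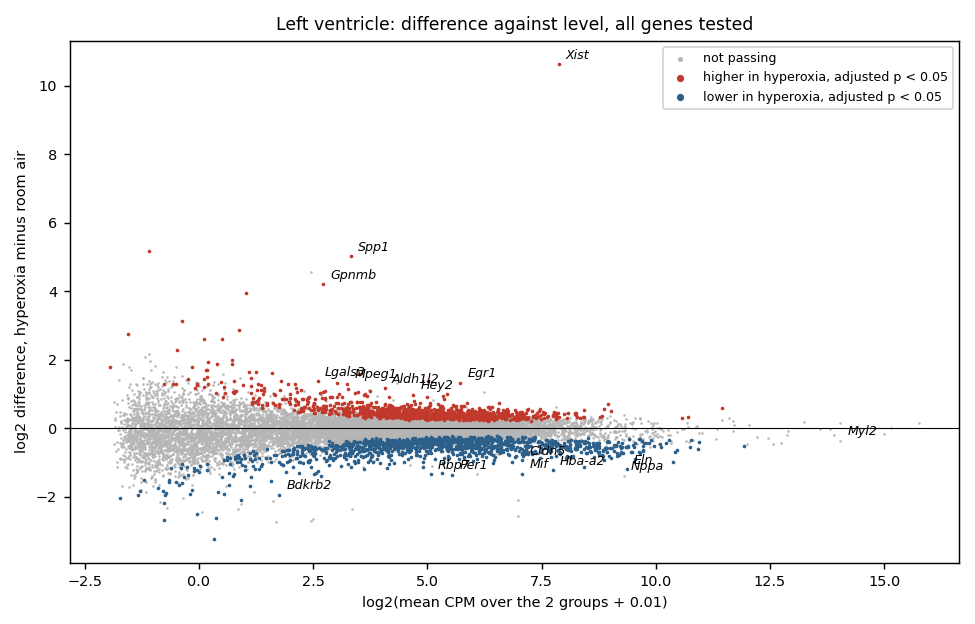
Log2 difference between hyperoxic and room-air left ventricles (vertical axis) against log2 mean CPM over both groups (horizontal axis), 1 point per gene tested. Red points passed as higher (1061 genes), blue points passed as lower (1185 genes) and grey points did not pass. Apart from Xist, Spp1 and Gpnmb stand far above the other genes labelled in the plot, while most genes that passed lie within 1 log2 unit of 0. Xist, at the top, follows the sex classes of the libraries.

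The largest rises among the genes chosen by size were those of Spp1, Gpnmb and Lgals3, which lipid-laden and phagocytic macrophages are known to express. Spp1 encodes osteopontin, a secreted glycoprotein that macrophages make at sites of injury. It lies on chr5:104435118-104441050. Its levels were 7.30, 8.98, 21.6, 29.9 and 29.2 CPM in the hyperoxic ventricles and 0.401, 0.316, 0.495, 0.645 and 1.10 CPM in room air. Every hyperoxic library stood above every room-air library. Absence of overlap was a condition for all genes chosen by size, among them Mpeg1, Rbp7 and Per1 below. For Spp1 the hyperoxic libraries themselves fell into a lower pair (1 and 2) and a higher trio (4, 5 and 6). The log2 difference was 5.03 ± 0.49, adjusted p = 4.76e-04. Gpnmb, a membrane glycoprotein of lysosome-rich macrophages (chr6:49036546-49070929), was at 6.803, 8.55, 10.2, 19.1 and 17.5 CPM and at 0.510, 0.386, 1.14, 0.228 and 1.03 CPM (4.20 ± 0.39, adjusted p = 1.87e-04). It repeated the order of Spp1, with hyperoxic libraries 5 and 6 highest. With sex class as a covariate the log2 differences were 5.00 (adjusted p = 0.00505) for Spp1 and 4.27 (adjusted p = 8.90e-04) for Gpnmb. Under the length slope they were 4.78 (adjusted p = 0.0986) and 3.24 (adjusted p = 0.0224). Both genes also kept their call with the Myl7 covariate.

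Of the 26 lipid-associated macrophage genes tested, 7 were higher and 3 lower, against 6.95% and 7.77% of all genes, and the median log2 difference was 0.11. Lgals3, which encodes galectin-3, rose from 3.39 to 8.75 CPM (1.37 ± 0.16, adjusted p = 4.76e-04) and passed in all 3 covariate fits. Mmp12, the macrophage elastase, was counted 51, 32, 138, 204 and 153 times in the hyperoxic libraries and 11, 7, 7, 5 and 5 times in room air (3.95 ± 0.504, adjusted p = 7.74e-04). It passed with the sex and the Myl7 covariate. Further members of the list were Clec7a, the beta-glucan receptor dectin-1 (1.88 ± 0.28), which passed with sex class, and Trem2, a lipid receptor of phagocytes (0.61 ± 0.19, adjusted p = 0.0403). Atp6v0d2, a subunit of the lysosomal proton pump, was counted 13, 11, 31, 42 and 38 times in hyperoxia and 0, 0, 0, 0 and 3 times in room air. The ratio of these totals per depth was 44.3 (95% exact binomial interval 14.9 to 218, counting error only). The gene passed with sex class. The last 3 genes were picked out after their values were seen. The lower members were Fabp5 (-0.76), which capillary endothelium also expresses, Cd9 (-0.49) and the protease gene Ctsz (-0.62).

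General macrophage markers rose in part. Of 21 tested, 5 were higher (23.8%, against 6.95% of all genes) and none lower, with a median of 0.25. The summed level of the 22 markers was 208 to 244 CPM under hyperoxia against 139 to 194 CPM, without overlap. Mpeg1, a pore-forming protein of phagocytes, was at 11.9, 12.02, 17.0, 14.8 and 11.8 CPM in the hyperoxic and 6.99, 4.98, 4.30, 5.42 and 5.57 CPM in the room-air libraries (1.31 ± 0.15, adjusted p = 4.78e-04), and passed in all 3 covariate fits. Lyz2, the lysozyme of myeloid cells, was at 36.0, 39.6, 48.0, 42.1 and 44.2 CPM against 26.3, 22.8, 22.3, 15.7 and 23.7 CPM (0.92 ± 0.12, adjusted p = 0.00103) and passed with the sex and Myl7 covariates. The groups did not overlap for either gene. Cx3cr1, the fractalkine receptor of resident macrophages (0.66 ± 0.14), Adgre1, which encodes F4/80 (0.76 ± 0.17), and Ccr2, the receptor that draws monocytes from blood (1.45 ± 0.32), also rose. Cx3cr1 passed with the Myl7 covariate. Of the 21 log2 differences 15 were above 0 and 6 below. Those below 0 were Folr2 (-1.18), Lyve1 (-0.45), F13a1 (-0.34), Aif1 (-0.15), Cd14 (-0.12) and Mrc1 (-0.034), and none of them passed. Other core markers did not pass either. The growth factor receptor gene Csf1r had a log2 difference of 0.42 ± 0.16, adjusted p = 0.0820, and the complement gene C1qa one of 0.039 ± 0.10, adjusted p = 0.822, with 23.2, 24.8, 19.1, 24.2 and 22.9 CPM against 24.1, 20.04, 20.3, 25.8 and 21.0 CPM. The lysosomal protease gene Ctss, at 13.4, 16.0, 16.1, 17.6 and 19.2 CPM against 8.23, 7.76, 7.14, 8.99 and 9.08 CPM (1.001 ± 0.12, adjusted p = 6.25e-04), rose and passed in all 3 covariate fits. Adgre1, Ccr2, Csf1r, C1qa and Ctss were picked out after their values were seen.

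Among 23 chemokines, cytokines and adhesion molecules 2 were higher (8.70%) and 1 lower (4.35%), near the 6.95% and 7.77% of all genes. Ccl2, the ligand of the Ccr2 receptor, was at 4.05, 2.29, 11.7, 2.701 and 4.36 CPM in the hyperoxic and 2.48, 2.14, 2.10, 1.44 and 1.41 CPM in the room-air libraries (1.39 ± 0.38, adjusted p = 0.0277). The value of hyperoxic library 4 stood apart and the groups overlapped. Without that library the log2 difference was 0.81 (adjusted p = 0.0495). Vcam1, the endothelial adhesion receptor for leukocytes, rose (log2 difference 0.36 ± 0.11). None of 8 neutrophil markers tested passed, and their summed level was 13.4 to 21.2 CPM under hyperoxia against 8.62 to 19.8 CPM.

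Many endothelial genes fell. Of 27 genes of endothelial junctions and identity, 13 were lower (48.1%, against 7.77% of all genes) and 1 was higher, and 26 of the 27 log2 differences were below 0. The median was -0.35, beside 0.00 over all genes. With sex class, the length slope and Myl7 as covariates the median was -0.27, -0.38 and -0.29, and 2, 4 and 5 members passed as lower, against 0 with sex class and length slope together. Cldn5, the tight junction claudin of small vessels (chr16:18776847-18778262), was at 81.5, 90.7, 93.1, 95.2 and 104 CPM in the hyperoxic and 186, 166, 139.5, 242 and 151 CPM in the room-air libraries (-0.93 ± 0.13, adjusted p = 0.00134). The groups did not overlap. Esam, an endothelial adhesion molecule (chr9:37528078-37538319), was at 109, 104, 88.7, 98.9 and 101 CPM against 155, 171, 146, 162 and 158 CPM (-0.66 ± 0.080, adjusted p = 6.40e-04). Robo4, a guidance receptor that stabilises vessels, fell (log2 difference -0.66 ± 0.082, adjusted p = 7.12e-04). Esam and Robo4 passed in all 3 covariate fits, and Cldn5 with Myl7 alone. Icam2, a leukocyte ligand that endothelium carries at rest, was at 67.4 ± 4.35 CPM under hyperoxia against 101 ± 12.1 CPM (-0.58 ± 0.091, adjusted p = 0.00253) and passed with Myl7. Among the other lower members were Rasip1 (-0.67), Egfl7 (-0.65), Ecscr (-0.60) and the transcription factor genes Sox18 (-0.47) and Sox17 (-0.35). Another 13 members did not pass, among them Pecam1 (-0.20), Cdh5 (-0.33), Flt1 (-0.19), Emcn (-0.18), Kdr (-0.13) and Tek (-0.083).

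The exception was Plvap, the diaphragm protein of fenestrated and endocardial endothelium. It stood at 45.1, 37.4, 43.3, 37.6 and 50.2 CPM in the hyperoxic and 28.2, 27.5, 29.9, 29.8 and 31.2 CPM in the room-air libraries and rose (0.54 ± 0.094, adjusted p = 0.00418). Beside 6.95% and 7.77% of all genes, 3 of 14 endocardial and valve markers were higher (21.4%) and 2 lower (14.3%). Their summed level was 2004 to 2463 CPM under hyperoxia against 1545 to 1833 CPM, without overlap and higher in hyperoxia, while their median log2 difference was -0.10. Prox1, a transcription factor of lymphatic endothelium, valves and cardiomyocytes, rose (log2 difference 0.498 ± 0.092, adjusted p = 0.00559). Tmem100, a BMP-dependent endothelial gene, fell (log2 difference -0.94 ± 0.14, adjusted p = 0.00223) and passed with Myl7.

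Some capillary genes for lipid supply fell. Of 19 tested, 6 were lower (31.6%) and none higher, against 7.77% of all genes lower, and the median was -0.30. The list median was -0.29, -0.32 and -0.32 under the covariates sex class, length slope and Myl7, with 0, 0 and 4 members passing as lower, and 0 passing with sex class and length slope together. Rbp7, a retinol-binding protein of heart capillaries (chr4:149449687-149454978), was at 19.3, 16.7, 14.5, 17.3 and 27.7 CPM in the hyperoxic and 50.1, 46.0, 35.5, 69.4 and 40.8 CPM in the room-air libraries (-1.34 ± 0.18, adjusted p = 0.00122). Fabp4, a fatty acid carrier of capillaries and adipocytes, was at 905, 772, 1072, 729 and 1008 CPM against 1480.4, 1989, 1341, 2421 and 1627 CPM (-0.98 ± 0.16, adjusted p = 0.00290). Gpihbp1, which moves lipoprotein lipase across the capillary wall, was at 104, 97.4, 105, 89.0 and 108 CPM against 164, 176, 147, 215 and 140.3 CPM (-0.74 ± 0.11, adjusted p = 0.00194). In each of the 3 the groups did not overlap, and each passed with the Myl7 covariate. With the length slope their log2 differences were -0.69, -0.52 and -0.38. Meox2, a homeobox factor that switches on fatty acid transport in heart endothelium, was at 34.2 ± 2.69 CPM under hyperoxia against 47.2 ± 0.708 CPM (-0.46 ± 0.078, adjusted p = 0.00351).

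Some genes of vascular signalling fell. Of 25 VEGF, apelin, angiopoietin and Notch genes, 7 were lower (28%, against 7.77% of all genes) and 2 higher (8%, near the 6.95% of all genes). Vegfa, the main growth factor of endothelium, did not pass (log2 difference 0.17 ± 0.14, adjusted p = 0.418), while Vegfb (-0.47) and Vegfd (-0.93) were lower. Apln, the apelin peptide gene of sprouting tip cells, was at 42.3, 36.1, 54.8, 44.4 and 48.1 CPM in the hyperoxic and 71.2, 73.6, 90.6, 82.2 and 61.9 CPM in the room-air libraries (-0.75 ± 0.12, adjusted p = 0.00264) and passed with Myl7. Notch4, a Notch receptor of endothelium (-0.44 ± 0.091), and Hey1, a Notch target (-0.52 ± 0.10), fell. Angpt1, the ligand of the Tie2 receptor, rose (0.51), as did Hey2, which is described with the cardiomyocyte genes. The BMP targets Id1 (-0.80 ± 0.15, adjusted p = 0.00595) and Id3 (-0.505 ± 0.084, adjusted p = 0.00336) fell along with the ligand gene Bmp4 (-0.66 ± 0.12, adjusted p = 0.00548). Id1 passed with Myl7. Klf2, a transcription factor that shear stress induces in endothelium, fell (log2 difference -0.53 ± 0.13, adjusted p = 0.0211), with overlap between the groups.

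**Figure D2:**
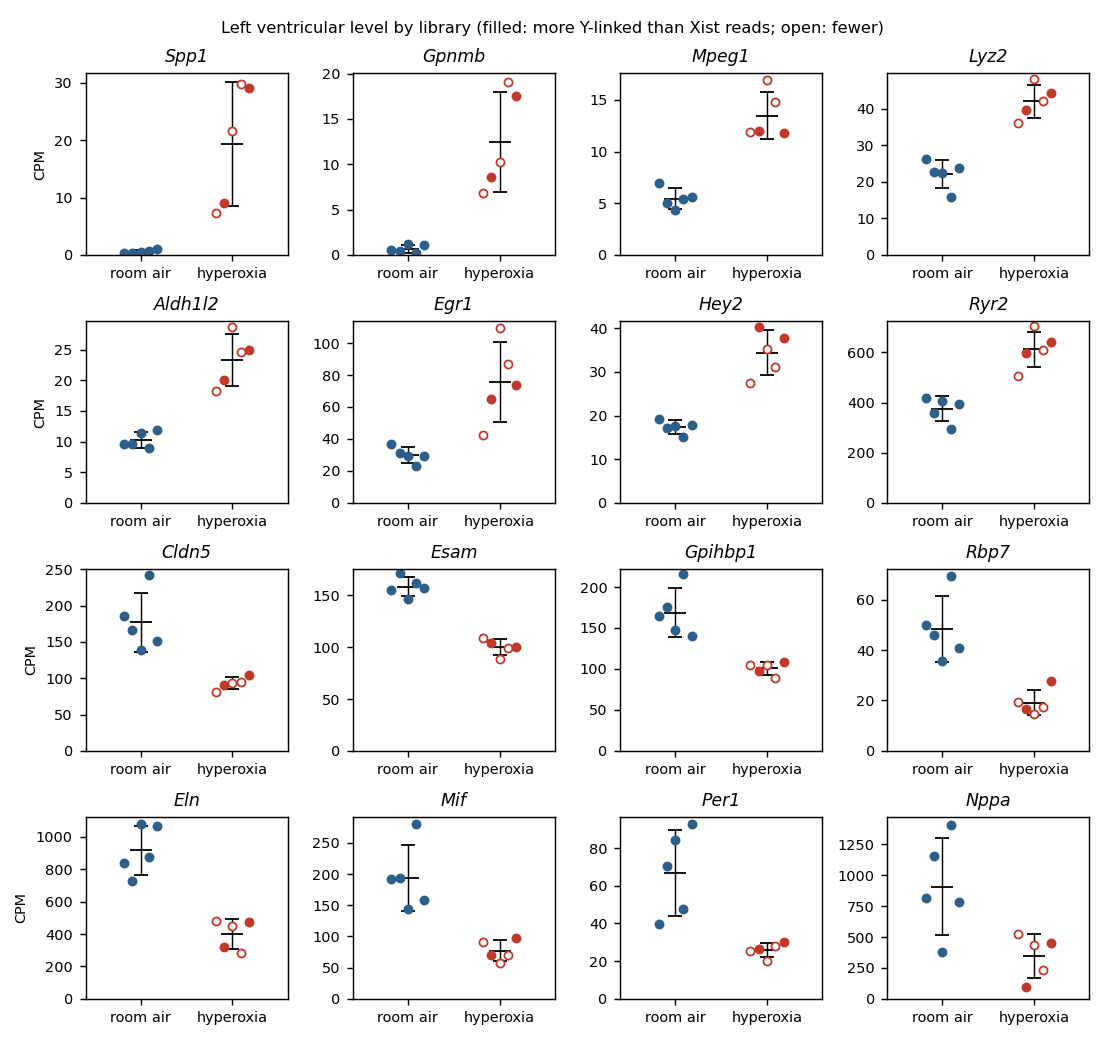
Level in CPM (vertical axis, starting at 0) of 16 genes in each left ventricular library, room air at left and hyperoxia at right. Points are single libraries, filled where Y-linked reads outnumber those of Xist; the bar and whiskers are the mean ± SD of 5 libraries. The 2 filled and 3 open hyperoxic points lie on the same side of the room-air points in each panel except that of Nppa, where the groups overlap. Genes chosen by size had to be without overlap, so their panels are no independent evidence on sex class.

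Some elastic fibre genes fell. Of 21 elastic fibre genes, 9 were lower (42.9%, against 7.77% of all genes) and none higher, with a median of -0.22. With sex class, the length slope and Myl7 as covariates the median was -0.18, -0.32 and -0.079, and 2, 3 and 2 members passed as lower, against 0 with sex class and length slope together. Eln encodes tropoelastin, the monomer of elastin (chr5:134702593-134747323). Its levels were 478, 322, 452, 285 and 477 CPM in the hyperoxic and 841, 726, 1082, 874 and 1064 CPM in the room-air libraries (-1.19 ± 0.16, adjusted p = 0.00103). Mfap4, a microfibril-associated protein, was at 73.9, 66.7, 62.3, 48.2 and 53.6 CPM against 131, 107, 121, 91.1 and 132 CPM (-0.93 ± 0.13, adjusted p = 0.00103). Eln was 2.28-fold and Mfap4 1.91-fold lower, and both passed in all 3 covariate fits. Ltbp2, which binds fibrillin and fibulin-5, fell (log2 difference -1.34 ± 0.27, adjusted p = 0.00852). Mfap5 (-0.60 ± 0.11), Fbln5 (-0.65), Efemp2 (-0.57) and the crosslinking enzyme gene Lox (-0.55) were lower too.

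Of 24 collagen genes 1 was lower (4.17%, below the 7.77% of all genes) and none higher. This was Col4a4, a basement membrane chain (-0.79 ± 0.22, adjusted p = 0.0319), and Col1a1, the chain of fibrillar type I collagen, had a log2 difference of -0.47 ± 0.16, adjusted p = 0.0593. Of 35 matricellular, proteoglycan and protease genes 1 rose (2.86%) and 4 fell (11.4%), beside 6.95% and 7.77% of all genes. The proteoglycan gene Bgn, at 341, 312, 328, 267 and 288 CPM in the hyperoxic and 471, 409.8, 434, 429.9 and 489.7 CPM in the room-air libraries (-0.54 ± 0.093, adjusted p = 0.00391), and Sparc (-0.39 ± 0.090, adjusted p = 0.0133) fell, and the aggrecanase gene Adamts4 rose (0.89 ± 0.20, adjusted p = 0.0122). Bgn passed with the length slope covariate.

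Few fibroblast markers passed. Of 15 tested 3 were lower (20%, against 7.77% of all genes) and none higher, and the median was -0.12. The summed levels overlapped at 4372 to 5582 CPM under hyperoxia against 4210.4 to 6264 CPM. The 3 were Mfap5 and a pair that passed in nearly every setting tried. Pi16 marks adventitial fibroblasts (chr17:29317680-29330593), and was at 11.1, 12.2, 7.58, 11.3 and 9.78 CPM in the hyperoxic and 19.2, 22.4, 19.7, 21.3 and 22.1 CPM in the room-air libraries (-1.005 ± 0.12, adjusted p = 6.79e-04). Meox1 is a homeobox factor gene of mesenchyme (chr11:101877510-101894374), and was at 34.2, 26.9, 33.1, 28.2 and 33.7 CPM against 47.6, 59.2, 62.9, 61.2 and 54.8 CPM (-0.87 ± 0.10, adjusted p = 4.76e-04). Both passed in all 3 covariate fits and in the Y-rich libraries. Wt1, a factor of the epicardium and of young endothelium, fell (log2 difference -0.57 ± 0.10, adjusted p = 0.00548). Of 14 epicardial markers 2 rose and 2 fell (14.3% each, beside 6.95% and 7.77% of all genes).

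Around the vessels, some pericyte genes fell. Of 15 smooth muscle and pericyte markers 4 were lower (26.7%, against 7.77% of all genes) and none higher. These were the pericyte genes Higd1b (-1.18 ± 0.23, adjusted p = 0.00746), Ndufa4l2 (-0.79 ± 0.12, adjusted p = 0.00256), Vtn (-0.75 ± 0.17, adjusted p = 0.0122) and Rgs5, an inhibitor of G-protein signalling (-0.38 ± 0.098, adjusted p = 0.0214). Higd1b, at 8.02, 6.796, 9.34, 6.30 and 6.94 CPM in the hyperoxic and 11.8, 17.9, 11.003, 29.8 and 14.3 CPM in the room-air libraries, passed with Myl7, and with the length slope its log2 difference was -0.37. Among receptors the bradykinin B2 receptor gene Bdkrb2 (chr12:105563226-105595237) had the largest fall of the named genes that passed. It was at 1.92, 1.502, 0.0765, 1.32 and 2.10 CPM in the hyperoxic and 4.84, 5.58, 5.84, 4.25 and 6.40 CPM in the room-air libraries (-1.94 ± 0.40, adjusted p = 0.00968), and passed within the Y-rich libraries.

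Several genes of cardiomyocyte calcium cycling, ion channels and ventricular transcription rose. Of 34 calcium handling and ion channel genes 9 were higher (26.5%, against 6.95% of all genes) and 1 lower, with a median of 0.26. The list median was 0.29, 0.24 and 0.26 under the covariates sex class, length slope and Myl7, with 0, 1 and 1 members passing as higher, and 0 passing with sex class and length slope together. Ryr2, the release channel of the sarcoplasmic reticulum (chr13:11553102-12106945), was at 508, 598, 704, 611 and 639.8 CPM in the hyperoxic and 418, 360.3, 408, 295 and 393 CPM in the room-air libraries (0.71 ± 0.11, adjusted p = 0.00284). Atp2a2, the pump that refills that store, was at 2718, 3401, 3426, 3939.6 and 3268 CPM against 2276, 1988, 2218, 2245 and 2328 CPM (0.60 ± 0.11, adjusted p = 0.00538), and was picked out after its values were seen. Slc8a1, the sodium-calcium exchanger, rose (log2 difference 0.57 ± 0.10, adjusted p = 0.00452) and passed with the length slope. These 3 did not overlap between groups. Potassium channel genes included Kcnj5, which rose from 36.6 to 58.3 CPM (0.67 ± 0.11, adjusted p = 0.00284) and passed with Myl7, and Kcnd3 (1.06). The exception was Kcna5, an ultrarapid delayed rectifier channel, at 33.9, 33.7, 31.9, 30.4 and 29.0 CPM in the hyperoxic and 44.3, 46.2, 41.0, 45.5 and 46.5 CPM in the room-air libraries (-0.49 ± 0.079, adjusted p = 0.00290).

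Hey2, a repressor that Notch signalling induces and that ventricular myocardium expresses (chr10:30832359-30842801), was at 27.4, 40.3, 35.2, 31.0 and 37.9 CPM in the hyperoxic and 19.2, 17.2, 17.6, 15.1 and 17.8 CPM in the room-air libraries (0.98 ± 0.11, adjusted p = 4.76e-04). It was the only one of the named genes that passed in the reported fit and in all 25 other settings, with log2 differences of 1.17 (adjusted p = 8.90e-04) with sex class and 0.84 (adjusted p = 0.0382) with the length slope. Of 18 ventricular transcription factor genes 5 rose (27.8%, against 6.95% of all genes) and none fell. The others were Irx4, which represses atrial genes in the ventricle (0.28 ± 0.076, adjusted p = 0.0268), the oestrogen-related receptor genes Esrrb (0.59 ± 0.14, adjusted p = 0.0154) and Esrrg (0.46 ± 0.11, adjusted p = 0.0150), which act on mitochondrial genes, and Mef2a (0.30). Esrrb passed with the length slope.

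Few contractile and stretch genes passed. Of 21 sarcomere isoforms none rose and 3 fell (14.3%, against 7.77% of all genes). Among the 3 were Tpm2, a tropomyosin (-0.71 ± 0.16, adjusted p = 0.0143), and Tnnc1, cardiac troponin C (-0.51 ± 0.16, adjusted p = 0.0427). Tnnc1 under the length slope stood at 0.052 (adjusted p = 0.884). Nppa, the atrial natriuretic peptide that fetal ventricles also make, was at 527, 95.2, 432, 233 and 449 CPM in the hyperoxic and 816, 1159, 378, 1406 and 785 CPM in the room-air libraries and did not pass (log2 difference -1.39 ± 0.49, adjusted p = 0.0848). In the fit of all 20 libraries its ventricular value did pass (-1.39 ± 0.35, adjusted p = 0.0155). Nppb, the peptide that stretch of the wall induces, was at 331, 112, 368, 252 and 332 CPM against 268, 295, 188, 279.9 and 195 CPM (0.18 ± 0.25, adjusted p = 0.645), with overlap. Of 19 natriuretic, stretch and Z-disc genes, 2 rose (10.5%, against 6.95% of all genes) and none fell. These were Xirp1, an actin-binding protein of intercalated discs (0.44 ± 0.083, adjusted p = 0.00632), and Corin, the protease that activates the Nppa product (0.36 ± 0.094, adjusted p = 0.0232). Of 17 atrial markers 1 passed, as lower (5.88%, against 7.77% of all genes). This was the light chain gene Myl1 (-0.81 ± 0.24, adjusted p = 0.0338). The median of these 17 was -0.69, and in all but 2 the log2 difference was below 0.

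**Figure D3:**
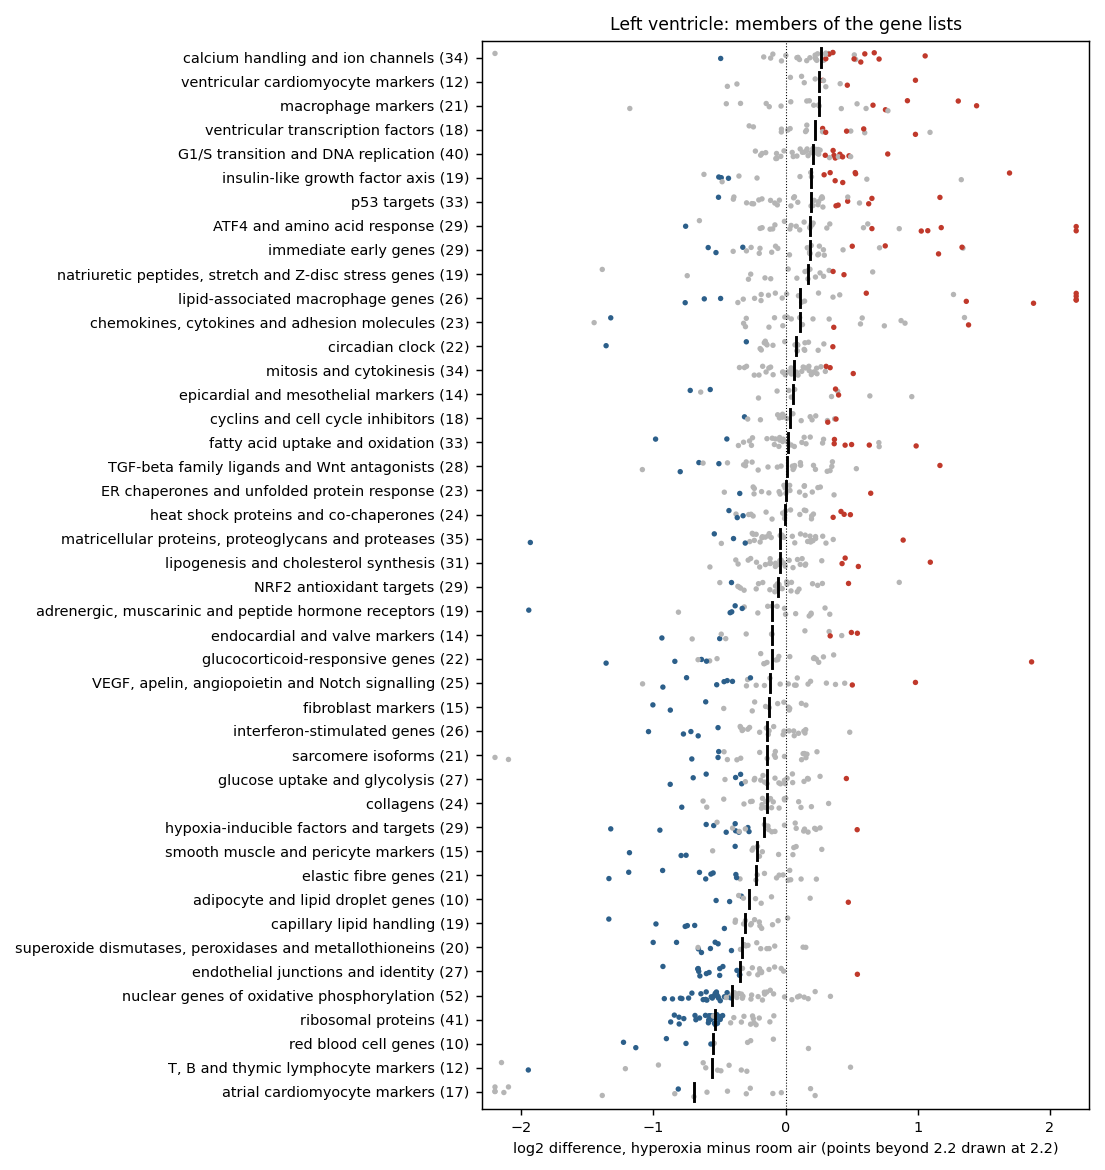
Log2 difference (horizontal axis) of every tested member of the gene lists with at least 10 tested members, 1 row a list with the number of members tested in brackets. Red and blue points passed as higher and lower, grey points did not, the black bar is the list's median and the dotted line the median of all genes. Atrial cardiomyocyte markers have the lowest median (-0.69), followed by lymphocyte markers and red cell genes. Ribosomal protein, oxidative phosphorylation and endothelial genes also lie to the left. Calcium handling, macrophage and ventricular transcription factor genes lie to the right, and 28 of 41 ribosomal protein genes are blue.

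The amino acid response, which the factor ATF4 drives when amino acids or their tRNAs run short or mitochondria fail, rose in a few genes. Of 29 tested, 6 were higher (20.7%) and 1 lower (3.45%), beside 6.95% and 7.77% of all genes. Aldh1l2, the mitochondrial formyltetrahydrofolate dehydrogenase (chr10:83487450-83534140), was at 18.2, 20.1, 28.7, 24.7 and 24.9 CPM in the hyperoxic and 9.65, 9.62, 11.3, 8.87 and 11.9 CPM in the room-air libraries (1.18 ± 0.13, adjusted p = 4.76e-04), and passed in all 3 covariate fits. Chac1, which degrades glutathione, was counted 112, 25, 198, 59 and 81 times in hyperoxia and 16, 11, 9, 6 and 20 times in room air (2.88 ± 0.51, adjusted p = 0.00459). Hyperoxic library 4 was the highest. Slc7a3, a cationic amino acid carrier (2.62 ± 0.57), Sesn2, a leucine sensor (0.65 ± 0.13), Asns, asparagine synthetase (1.08 ± 0.26), and Trib3, a pseudokinase (1.03 ± 0.24), rose too. Asns and Trib3, picked out after their values were seen, overlapped between groups: hyperoxic library 2 stood at 7.51 and 3.93 CPM, inside the room-air range. The lower gene was Nupr1 (-0.76).

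Promoter sequence is shown for Asns and Chac1, which rose together. The C/EBP-ATF response element, the composite site that ATF4 binds, was searched as TGATGNAA on both strands in the 250 bases before each RefSeq start in GRCm38.p6. Both windows, chr6:7693210-7693459 on the minus strand and chr2:119350992-119351241 on the plus strand, hold 1 match, which lies 23 and 193 bases before the start and is given in capitals.
Asns: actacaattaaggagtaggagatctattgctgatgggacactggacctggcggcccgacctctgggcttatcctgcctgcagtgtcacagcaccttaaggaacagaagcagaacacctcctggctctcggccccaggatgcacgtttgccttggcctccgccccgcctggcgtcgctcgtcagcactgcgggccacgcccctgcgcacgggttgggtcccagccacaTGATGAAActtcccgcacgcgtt
Chac1: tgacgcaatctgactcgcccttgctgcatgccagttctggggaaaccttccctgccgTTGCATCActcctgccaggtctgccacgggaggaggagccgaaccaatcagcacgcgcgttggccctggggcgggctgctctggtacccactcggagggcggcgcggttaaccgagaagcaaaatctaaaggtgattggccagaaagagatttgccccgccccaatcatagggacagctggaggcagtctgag
Over all 32851 windows 3.45% hold this element, and 7 of 29 windows of the list do. The list was drawn from known members of this response, so this share is no independent evidence. Of the 6 higher genes 4 have a window, and 2 of these, Asns and Chac1, hold the element. Nupr1, the lower gene, also has the element. A match is a description of the letters and shows no binding.

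A few p53 targets rose. Their median log2 difference was 0.19, and 0.13, 0.074 and 0.081 with sex class, the length slope and Myl7 as covariates. No target in the list passed in these 3 fits. Of 33 tested 6 were higher (18.2%, against 6.95% of all genes) and 1 lower, and Cdkn1a, the arrest gene p21, was at 71.5, 44.3, 66.7, 65.2 and 70.5 CPM in the hyperoxic and 73.3, 60.7, 64.8, 70.3 and 59.6 CPM in the room-air libraries (-0.047 ± 0.12, adjusted p = 0.815). The higher members included Gdf15, a stress cytokine, at 8.22, 2.83, 7.003, 4.98 and 7.003 CPM against 2.73, 2.42, 2.57, 3.15 and 2.51 CPM (1.17 ± 0.24, adjusted p = 0.00900). Hyperoxic library 2 again lay within the room-air range. Eda2r, a death receptor (0.63 ± 0.14, adjusted p = 0.0128), and Ccng1, cyclin G1 (0.38 ± 0.11, adjusted p = 0.0323), rose, and the apoptosis effector gene Bax fell (-0.51 ± 0.13, adjusted p = 0.0227). Of 29 NRF2 targets 1 was higher and 1 lower (3.45% each, below the shares of all genes). Gclc, the rate-limiting enzyme of glutathione synthesis, rose (0.48 ± 0.15, adjusted p = 0.0492). Nqo1, the quinone reductase often used as a readout of NRF2, had a log2 difference of -0.050 ± 0.14, adjusted p = 0.836, and Txn1, thioredoxin, fell (-0.41 ± 0.11, adjusted p = 0.0293). Txn1 under the length slope stood at 0.0038 (adjusted p = 0.992).

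Some enzymes that remove superoxide and peroxides fell. Of 20 superoxide dismutases, peroxidases and metallothioneins 8 fell (40%, against 7.77% of all genes), 12 did not pass and none rose, with a median of -0.33. The list median was -0.35, 0.059 and -0.41 under the covariates sex class, length slope and Myl7, with 0, 1 and 0 members passing as lower, and 0 passing with sex class and length slope together. Sod3, the extracellular superoxide dismutase (chr5:52363791-52371418), was at 7.55, 7.26, 7.08, 5.67 and 4.804 CPM in the hyperoxic and 14.6, 9.76, 11.1, 8.27 and 13.6 CPM in the room-air libraries (-0.83 ± 0.17, adjusted p = 0.00975), and with the length slope at -1.15 (adjusted p = 0.0491). Gpx7 (-0.66 ± 0.13, adjusted p = 0.00672), a peroxidase of the endoplasmic reticulum, Prdx5 (-0.57 ± 0.14, adjusted p = 0.0185), a peroxiredoxin of mitochondria, and the metallothionein Mt3 (-1.002 ± 0.22, adjusted p = 0.0110) fell. With the length slope Prdx5 and Mt3 stood at -0.060 and -0.10, and their room-air library 4 was the highest of all. Among chaperones, Atf6, a sensor of unfolded proteins, rose (0.64 ± 0.10, adjusted p = 0.00288). It was 1 of 2 genes passing among 23, with 4.35% higher and 4.35% lower. Hsph1, a chaperone of the heat shock response, rose (0.49 ± 0.12, adjusted p = 0.0189). It was 1 of 4 higher (16.7%) and 3 lower (12.5%) genes among 24, beside 6.95% and 7.77% of all genes.

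Some targets of hypoxia-inducible factors fell. Of 29 tested, 10 were lower (34.5%, against 7.77% of all genes), 1 was higher and 18 did not pass, with a median of -0.16. With sex class, the length slope and Myl7 as covariates the median was -0.20, -0.13 and -0.19, and 0, 1 and 2 members passed as lower, against 0 with sex class and length slope together. Ankrd37, a small ankyrin repeat protein (chr8:45996902-46005707), was at 4.64, 4.58, 4.78, 4.26 and 5.01 CPM in the hyperoxic and 7.94, 10.04, 8.07, 10.3 and 8.70 CPM in the room-air libraries (-0.95 ± 0.13, adjusted p = 0.00103), with little spread within either group. Its annotated exons share bases with Lrp2bp and Ufsp2 on the other strand. Mif, a cytokine and hypoxia target (chr10:75859353-75860240), was at 91.0, 70.4, 57.6, 70.4 and 97.3 CPM against 192, 194, 145, 280.1 and 158 CPM (-1.32 ± 0.17, adjusted p = 9.59e-04). Both passed with Myl7, and Mif with the length slope, at -0.67 (adjusted p = 0.0340). Egln3, an oxygen-sensing prolyl hydroxylase that is itself a target, fell (log2 difference -0.54 ± 0.12, adjusted p = 0.0120). Bnip3 (-0.45), Bnip3l (-0.28), Ldha (-0.38), Adm (-0.38), P4ha1 (-0.29) and Ndrg1 (-0.35) were lower as well. The higher gene was Hif1a itself (0.54). Hif3a, a family member outside the list, rose from 2.23 to 5.48 CPM (1.295 ± 0.20, adjusted p = 0.00247) and passed with sex class.

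Upstream sequence is given for 3 of the lower targets to show the hypoxia response element. Its core ACGTG was searched on both strands in the 250 bases before the start. A CACGTG palindrome contains the core once on each strand, so it counts as 2 matches. Ankrd37 (chr8:45999851-46000100, minus strand) holds 2 matches, Bnip3 (chr7:138909507-138909756, minus strand) 2 and Ldha (chr7:46845554-46845803, plus strand) 5, in capitals.
Ankrd37: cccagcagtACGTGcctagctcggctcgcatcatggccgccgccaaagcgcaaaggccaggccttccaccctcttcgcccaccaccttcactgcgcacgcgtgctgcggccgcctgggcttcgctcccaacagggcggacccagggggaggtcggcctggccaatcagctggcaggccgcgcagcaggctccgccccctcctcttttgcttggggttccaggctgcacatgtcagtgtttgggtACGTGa
Bnip3: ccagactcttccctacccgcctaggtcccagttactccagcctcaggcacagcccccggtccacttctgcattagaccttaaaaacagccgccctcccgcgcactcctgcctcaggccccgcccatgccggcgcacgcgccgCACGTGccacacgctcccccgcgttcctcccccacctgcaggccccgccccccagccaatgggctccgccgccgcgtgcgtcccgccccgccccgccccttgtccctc
Ldha: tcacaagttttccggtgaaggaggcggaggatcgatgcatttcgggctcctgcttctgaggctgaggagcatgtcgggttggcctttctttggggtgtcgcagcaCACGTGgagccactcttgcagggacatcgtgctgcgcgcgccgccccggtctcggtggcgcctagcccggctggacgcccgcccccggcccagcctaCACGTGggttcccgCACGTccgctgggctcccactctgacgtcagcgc
The core is in 16.6% of all windows and in 19 of 38 windows of the list's genes (50%). The list was drawn from known targets, so this share is no independent evidence. Of the 10 lower genes 8 have a window and 6 have the core in it, and Hif1a has it as well. A second window of Ldha has no match.

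Some glycolytic genes were lower. Of 27 genes of glucose uptake and glycolysis 6 were lower (22.2%, against 7.77% of all genes) and 1 higher (3.70%). The median was -0.14, and -0.067, -0.026 and -0.21 with sex class, the length slope and Myl7 as covariates. No member passed in these 3 fits. Aldoa, aldolase A, was at 1555 ± 170.5 CPM under hyperoxia against 2358 ± 233 CPM (-0.60 ± 0.11, adjusted p = 0.00501). Slc16a3, the lactate exporter MCT4, was at 5.55 ± 0.748 CPM under hyperoxia against 10.2 ± 1.25 CPM (-0.87 ± 0.14, adjusted p = 0.00248). The higher gene was Hk2, hexokinase 2 (0.46 ± 0.084, adjusted p = 0.00554). In fatty acid uptake and oxidation 6 of 33 genes rose (18.2%) and 2 fell (6.06%), beside 6.95% and 7.77% of all genes. The median of this list was 0.016, and -0.011, 0.26 and -0.072 with sex class, the length slope and Myl7 as covariates. No member of it passed in these 3 fits. Ppara, the nuclear receptor that drives this pathway, was at 3.08, 3.58, 3.48, 5.34 and 5.31 CPM in the hyperoxic and 2.44, 2.07, 2.26, 1.71 and 1.99 CPM in the room-air libraries (0.99 ± 0.21, adjusted p = 0.0101), and its coactivator genes Ppargc1a (0.37 ± 0.090, adjusted p = 0.0179) and Ppargc1b (0.63 ± 0.15, adjusted p = 0.0143) rose too. Angptl4, an inhibitor of lipoprotein lipase, fell (-0.60 ± 0.10, adjusted p = 0.00420). In lipogenesis and cholesterol synthesis 4 of 31 genes rose (12.9%, against 6.95% of all genes) and none fell. Fasn, fatty acid synthase, was at 66.0, 70.9, 61.9, 80.3 and 65.5 CPM against 54.6, 47.9, 53.5, 46.3 and 49.8 CPM (0.45 ± 0.087, adjusted p = 0.00710). Scd2, a fatty acid desaturase, was at 164, 174, 166, 187 and 179.7 CPM in the hyperoxic and 122, 108, 116, 131 and 118 CPM in the room-air libraries (0.55 ± 0.079, adjusted p = 0.00153), and passed in all 3 covariate fits. The other 2 were Idi1 (1.10) and Lss (0.43), of sterol synthesis.

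Some genes of DNA replication rose by small amounts. Of 40 G1/S genes 9 were higher (22.5%, against 6.95% of all genes) and none lower, with a median of 0.21. The list median was 0.20, 0.29 and 0.19 under the covariates sex class, length slope and Myl7, with 0, 0 and 0 members passing as higher, and 0 passing with sex class and length slope together. Mcm2, a subunit of the replicative helicase, was at 78.4, 72.4, 74.7, 84.8 and 94.3 CPM in the hyperoxic and 62.1, 49.1, 63.2, 59.5 and 56.2 CPM in the room-air libraries (0.48 ± 0.095, adjusted p = 0.00761), and Cdc45, which forms part of the active helicase, rose (log2 difference 0.38 ± 0.092, adjusted p = 0.0179). The cyclin E genes Ccne1 (0.43 ± 0.11, adjusted p = 0.0184) and Ccne2 (0.77 ± 0.17, adjusted p = 0.0109) and their kinase partner gene Cdk2 (0.32 ± 0.086, adjusted p = 0.0256) rose. Of 34 genes of mitosis and cytokinesis 3 were higher (8.82%, near the 6.95% of all genes), among them Hmmr (0.51 ± 0.11, adjusted p = 0.0102) and Bub1b (0.34 ± 0.091, adjusted p = 0.0259). Mki67, the proliferation marker Ki-67, was at 367, 326, 385, 335 and 339 CPM against 281, 292, 339, 307 and 313 CPM and did not pass (0.19 ± 0.086, adjusted p = 0.131).

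The insulin-like growth factor axis moved in both directions. Of 19 genes 7 were higher (36.8%) and 3 lower (15.8%), beside 6.95% and 7.77% of all genes. The median was 0.20, and 0.13, 0.065 and 0.32 with sex class, the length slope and Myl7 as covariates. In these fits 0, 0 and 1 members passed as higher and none as lower. The receptor gene Insr (0.38 ± 0.084, adjusted p = 0.0124) and the RNA-binding protein gene Igf2bp2, at 36.1, 28.8, 30.1, 30.9 and 31.5 CPM in the hyperoxic and 22.03, 21.3, 22.5, 20.1 and 23.0 CPM in the room-air libraries (0.53 ± 0.087, adjusted p = 0.00307), rose. Igf2bp2 passed with Myl7. Pappa, a protease that frees the growth factor from its binding proteins, rose (1.70), and the binding protein gene Igfbp4 fell (-0.49 ± 0.11, adjusted p = 0.0114).

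Single clock and immediate early genes changed. Per1, a repressor of the circadian clock that glucocorticoids also induce (chr11:69095217-69109960), was at 25.3, 26.5, 20.2, 28.0 and 30.3 CPM in the hyperoxic and 39.5, 70.2, 84.1, 47.9 and 92.8 CPM in the room-air libraries (-1.36 ± 0.20, adjusted p = 0.00159). The room-air libraries spread more than 2-fold, and all lay above the hyperoxic ones. It passed with the length slope and Myl7 covariates. Of 22 clock genes 1 was higher (4.55%) and 2 lower (9.09%), near the 6.95% and 7.77% of all genes. Besides Per1, Dbp (-0.30 ± 0.091, adjusted p = 0.0406) fell and Clock rose (0.36 ± 0.092, adjusted p = 0.0218). The hour of collection is not in the labels. Of 29 immediate early genes 4 were higher (13.8%) and 3 lower (10.3%), beside 6.95% and 7.77% of all genes. Egr1, a zinc finger factor induced within minutes, was at 42.8, 64.8, 109, 87.2 and 73.6 CPM in the hyperoxic and 36.8, 31.0, 29.5, 23.1 and 29.2 CPM in the room-air libraries (1.34 ± 0.19, adjusted p = 0.00159), and Fos was at 6.11, 11.2, 22.005, 13.3 and 13.8 CPM against 6.63, 4.74, 7.63, 4.36 and 6.26 CPM (1.16 ± 0.26, adjusted p = 0.0127). Hyperoxic library 1 was the lowest of its group for both. Zbtb16, a glucocorticoid-responsive zinc finger gene, was at 1.80, 1.57, 1.65, 3.69 and 1.59 CPM in the hyperoxic and 0.619, 0.562, 0.680, 0.265 and 0.688 CPM in the room-air libraries (1.86 ± 0.35, adjusted p = 0.00639).

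Some transcripts of red cells and mast cells fell. Of 10 red cell genes 5 fell (50%, against 7.77% of all genes) and none rose, and the summed level of 13 was 869.7 to 1268 CPM under hyperoxia against 1722 to 2496 CPM, without overlap. Hba-a2 was at 152, 139, 117, 145 and 90.3 CPM in the hyperoxic and 277, 343, 239, 391 and 257 CPM in the room-air libraries (-1.23 ± 0.16, adjusted p = 7.42e-04), and Hba-a1 (-1.13 ± 0.16, adjusted p = 0.00134) and Hbb-bs (-0.90 ± 0.15, adjusted p = 0.00290) fell alongside it. The 2 alpha-globin copies are near-identical, so reads may be split between them. Hba-a2, Hba-a1 and Hbb-bs passed with the sex and Myl7 covariates. Of 7 mast cell markers 4 fell (57.1%, against 7.77% of all genes), 3 did not pass and none rose. The protease gene Mcpt4 was at 3.44, 4.47, 3.71, 1.92 and 3.45 CPM against 10.2, 6.39, 8.59, 8.53 and 8.56 CPM (-1.32 ± 0.20, adjusted p = 0.00213), and Tpsb2 (-0.81 ± 0.19, adjusted p = 0.0139) and Cma1 (-0.64 ± 0.19, adjusted p = 0.0348) were lower too. The summed levels of 9 mast cell markers overlapped at 62.4 to 80.9 CPM under hyperoxia against 76.0 to 108 CPM. Of 26 interferon-stimulated genes 5 fell (19.2%, against 7.77% of all genes) and none rose. The lower ones included Gbp2 (-0.51 ± 0.13, adjusted p = 0.0215), Bst2 (-0.66 ± 0.18, adjusted p = 0.0288) and the immunoproteasome genes Psmb8 (-0.72 ± 0.19, adjusted p = 0.0254) and Psmb9 (-1.04 ± 0.24, adjusted p = 0.0139). The value of Bst2 with the length slope was -0.020.

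Many ribosomal protein genes and some nuclear genes of the respiratory chain fell. Of 41 ribosomal protein genes 28 fell (68.3%, against 7.77% of all genes) and none rose, with a median of -0.53. Of 52 nuclear genes of oxidative phosphorylation 23 fell (44.2%), 29 did not pass and none rose, with a median of -0.41. With sex class, the length slope and Myl7 as covariates the ribosomal median was -0.49, 0.023 and -0.60 and that of oxidative phosphorylation -0.38, 0.081 and -0.53. None of these genes passed in any of the 3 fits. The median annotated exon length was 1781 and 1801 bases, against 4231 over all genes tested. Ndufb7, a subunit of complex I, was at 410.1, 348, 323, 337 and 420.1 CPM in the hyperoxic and 617, 670.5, 474, 1121 and 445 CPM in the room-air libraries (-0.86 ± 0.20, adjusted p = 0.0154). Room-air library 4, which has the most negative length slope, was the highest, and the groups did not overlap. Atp5e, of the ATP synthase, and Rpl38 had log2 differences of -0.92 ± 0.21, adjusted p = 0.0139 and -0.87 ± 0.18, adjusted p = 0.00970. With the length slope Atp5e and Rpl38 stood at -0.013 and -0.13. None of the 8 mitochondrially encoded mRNAs tested passed.

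The remaining genes chosen by size have less known roles in the heart. The higher ones were Pdpr (1.32 ± 0.27, adjusted p = 0.00900), a regulator of pyruvate dehydrogenase phosphatase, Klhl11 (1.304 ± 0.23, adjusted p = 0.00455), Taco1 (1.07 ± 0.16, adjusted p = 0.00228), a translational activator of cytochrome oxidase, Serac1 (1.05 ± 0.27, adjusted p = 0.0200) and Zc3h11a (1.08 ± 0.35, adjusted p = 0.0475). Under the slope covariate Pdpr, Serac1 and Zc3h11a stood at 0.38, 0.045 and -0.085. In the fit of all 20 libraries the ventricular values of Pdpr (adjusted p = 0.0685) and Zc3h11a (adjusted p = 0.179) did not pass. The lower ones were the short RNA gene Bc1 (-1.39 ± 0.26, adjusted p = 0.00580), the histone gene H2bc4 (-1.32 ± 0.19, adjusted p = 0.00159) and the light chain gene Myl12b (-1.24 ± 0.24, adjusted p = 0.00674), with length slope values of -0.40, -0.63 and -0.498. H2bc4, which has close copies, passed with sex class and Myl7. No single position in the annotation used matched Zc3h11a, H2bc4, Myl12b or Aldoa.

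**Figure D4:**
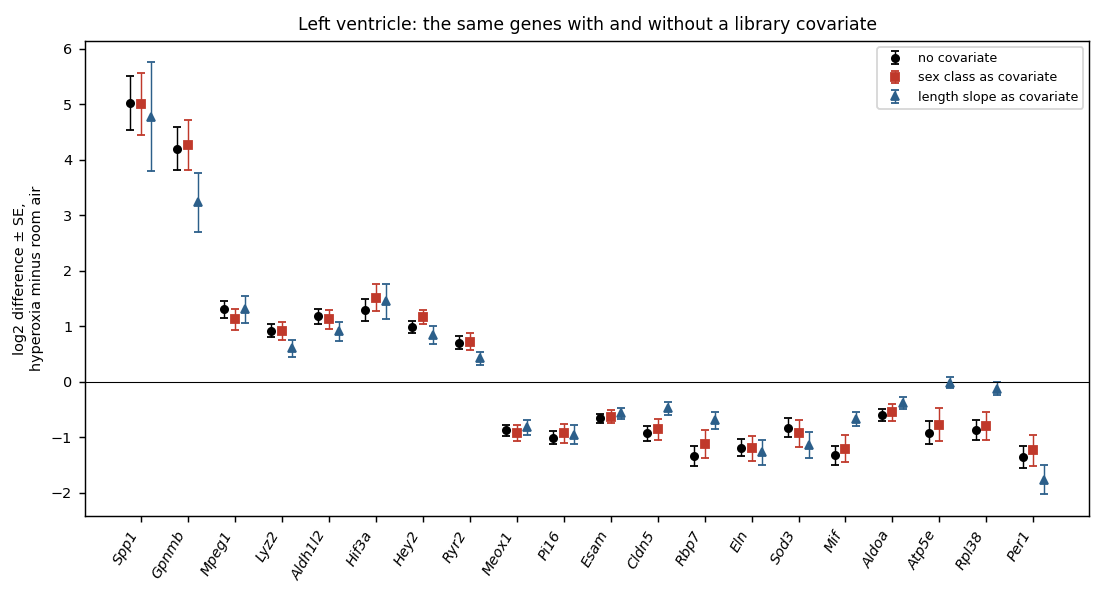
Log2 difference ± standard error (vertical axis) of 20 named genes in the fit without a covariate (circles), with sex class (squares) and with the length slope (triangles) as covariate, from 10 left ventricular libraries. The 3 values lie close for Spp1, Mpeg1, Meox1, Pi16 and Eln, while those of Atp5e and Rpl38 move towards 0 with the length slope, from -0.92 to -0.013 and from -0.87 to -0.13.

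The left atria of the same series allow the response of the ventricle to be set against that of another chamber. The difference between the chambers, atrium minus ventricle, was tested in 1 fit of all 20 libraries, and passed for 6060 of 16598 genes (36.5%). Among the hyperoxic atria only library 2 held more Y-linked than Xist reads, while every room-air atrium did. Sex class thus moved with oxygen in the atria as well, and the values below come from a fit without a covariate. That fit joined no atrium to a ventricle, and whether any came from the same mouse was not tested. For the macrophage genes Spp1, Gpnmb and Mpeg1 the chamber difference did not pass. Spp1 had an atrial log2 difference of 4.35 ± 0.48 (chamber difference -0.68 ± 0.70, adjusted p = 0.465), Gpnmb 3.91 ± 0.36 (-0.30 ± 0.52, adjusted p = 0.688) and Mpeg1 1.498 ± 0.16 (0.19 ± 0.23, adjusted p = 0.543). For Lgals3 the atrial value, 3.07 ± 0.17, was the larger (1.70 ± 0.25, adjusted p = 3.39e-05). Eln fell in the atrium by a log2 difference of -1.66 ± 0.21 (-0.48 ± 0.28, adjusted p = 0.191).

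For Hey2, Ryr2, Fasn and Mif the chamber difference passed. Hey2 rose in the ventricle, and its atrial log2 difference was -1.20 ± 0.16 (-2.18 ± 0.22, adjusted p = 5.07e-07). Ryr2 likewise had an atrial value of -0.88 ± 0.14 (-1.59 ± 0.19, adjusted p = 5.30e-06), and Fasn one of -0.49 ± 0.14 (-0.94 ± 0.19, adjusted p = 9.46e-04). Mif fell in the ventricle and had an atrial value of 0.75 ± 0.22 (2.08 ± 0.31, adjusted p = 5.40e-05). Of the genes with no ventricular call, Nppb had an atrial value of 6.38 ± 0.31 (6.195 ± 0.37, adjusted p = 9.78e-10), Cdkn1a 2.39 ± 0.11 (2.44 ± 0.15, adjusted p = 1.70e-09) and Mki67 -0.36 ± 0.11 (-0.56 ± 0.16, adjusted p = 0.0105). Nqo1 had an atrial value of 0.052 ± 0.13 (0.10 ± 0.18, adjusted p = 0.696). For Vegfa (0.501 ± 0.21, adjusted p = 0.0600) and Egr1 (-0.56 ± 0.31, adjusted p = 0.167) the chamber difference did not pass. Of 35 named genes examined this way the difference passed for 22, and in 14 of these the 2 values had opposite signs. Many of the 35 were chosen by the size of their ventricular difference. Among the 14, both values passed in that fit for Bc1, Mif, Nppa, Fasn, Hey2 and Ryr2. The atrial value did not pass for Klhl11 (-0.092), Serac1 (-0.068), H2bc4 (0.079), Mcpt4 (0.19), Bdkrb2 (0.23) and Pdpr (-0.68). The ventricular value did not pass for Cdkn1a, Mki67 and Pdpr, so neither value of Pdpr passed.

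**Figure D5:**
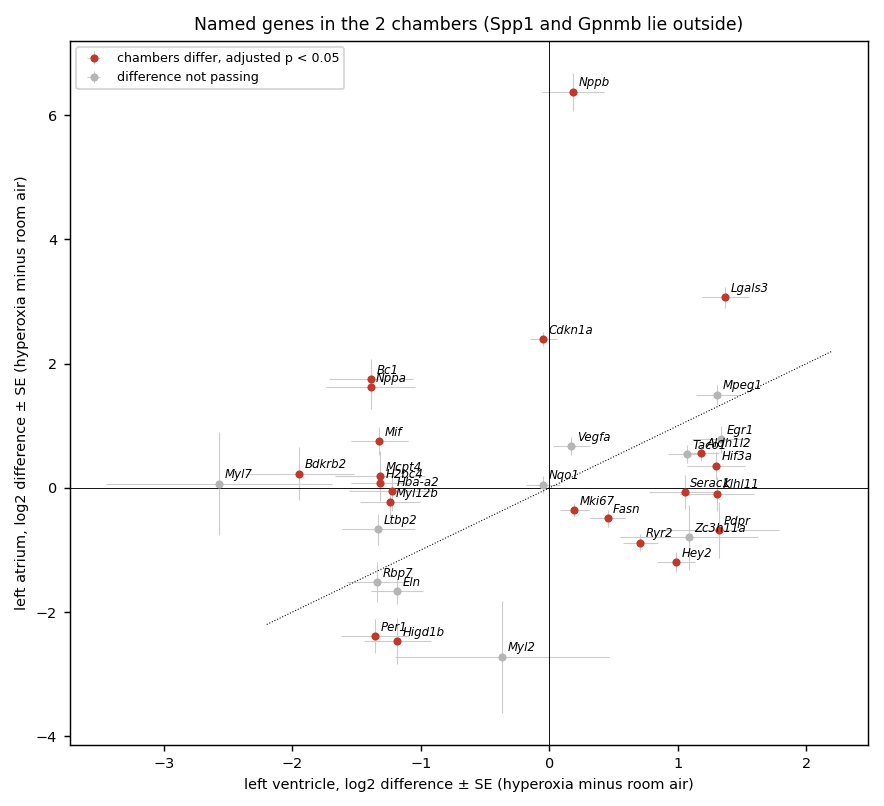
Log2 difference ± standard error in the left ventricle (horizontal axis) and the left atrium (vertical axis) for 33 named genes, from the fit of all 20 libraries; the dotted line marks equal values. Red genes passed the test of the difference between the chambers and grey genes did not. Hey2 and Ryr2 lie at the lower right, Mif and Nppa at the upper left, and Nppb far above the line.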

How the data were processed

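Each of the 10 ventricular libraries (and 10 atrial ones) came from 1 mouse. Libraries were stranded and made from mRNA, per the labels; for RNA isolation the sample labels and the series description name different kits. The deposited files hold raw read counts for 55367 gene symbols, not normalized by the authors. Per the submitters' processing notes, the build was GRCm38.p6 and the tools were STAR 2.7.6a, Salmon 1.3.0, fastp 0.20.1 and featureCounts of Subread 2.0.1, with no order or role given. The annotation release and strand setting are not given in the sources used here. Within each group no library repeated another (chi-square over its degrees of freedom at least 14.0), and 0 rows named no gene.

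The test was that of edgeR 4.0.16 in R 4.3.3 (filterByExpr, TMM scaling, robust quasi-likelihood F-test, Benjamini-Hochberg adjustment). The common biological coefficient of variation was 0.170. The code was also run on simulated counts that held no effect of sex class, length slope or atrial tissue. That run therefore cannot show how these properties bear on the calls. Alternatives used DESeq2 1.42.0, limma 3.58.1 voom, other filters and scalings, and covariates. The length slope regresses log2 CPM, centred per gene, on log2 exon length across 10839 genes that reach 5 CPM. Sex class compares Y-linked with Xist reads. Genes were named by rule: by size, 12 in each direction among those passing without overlap whose higher group averaged 5 CPM or more, leaving out predicted models and sex-linked genes; up to 4 members of smallest p per pathway list and 3 per cell type list; and 9 genes always. 2 genes that the rule names are not reported here. Others are said to be picked out after their values were seen or are list members that passed. The members, the 53 lists and this rule were chosen with earlier results of these data known. Positions and exon lengths were taken by symbol from GENCODE M21; 35 of 144 named genes share exonic bases with another gene. Promoter windows are from RefSeq.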

Additional observations from a re-analysis of the deposited data

Results flagged for a closer look

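In groups of 5 libraries, 1 library lay apart from the other 4 in 15 of 288 checks of the named genes, where chance alone flags about 1 in 20. The gap to the nearest library, as a share of the group's range, was 0.720 for Bc1, 0.741 for Myl12b, 0.770 for Mt3 and 0.750 for Atp5e, each highest in room-air library 4. That library was lowest for Bub1b (0.740), Cdk2 (0.907) and Hk2 (0.764), so it gave 7 of the 15. Hyperoxic library 4 was highest for Ccl2 (0.781), Vcam1 (0.744) and Clock (0.735). Hyperoxic library 2 was lowest for Cdkn1a (0.768) and highest for Vtn (0.735). The remaining cases were Zbtb16 in hyperoxic library 5 (0.891), Hbb-bs in room-air library 2 (0.770) and Atp6v0d2 in room-air library 5 (the whole range, 1, with 3 counts against 0 in the other 4).

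The response to hyperoxia differed between the chambers, by the edgeR test of atrium minus ventricle, for 22 of 35 named genes. The log2 difference of the responses was above 0 for Nppb (6.195), Bc1 (3.14), Nppa (3.01), Cdkn1a (2.44), Bdkrb2 (2.18), Mif (2.08), Lgals3 (1.70), Mcpt4 (1.505), H2bc4 (1.40), Hba-a2 (1.17) and Myl12b (1.01). It was below 0 for Hey2 (-2.18), Pdpr (-1.996), Ryr2 (-1.59), Klhl11 (-1.40), Higd1b (-1.28), Serac1 (-1.12), Per1 (-1.03), Hif3a (-0.94), Fasn (-0.94), Aldh1l2 (-0.61) and Mki67 (-0.56).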

How the results depend on the processing

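Of the 133 named genes that passed, 132 passed with RLE scaling, 130 with upper-quartile scaling, 131 with DESeq2, 129 with limma voom and 118 in the fit of all 20 libraries. Without hyperoxic library 4 and room-air libraries 1 and 4 together 116 passed. The number with a call fell to 23 with sex class as covariate, 19 with the length slope, 1 with both, 35 with Myl7 and 15 within the Y-rich libraries. These fits carry larger standard errors, with a median over genes of 0.176, 0.164, 0.186, 0.170 and 0.178 against 0.130. All libraries with fewer Y-linked than Xist reads were hyperoxic, so sex class and oxygen are only partly separable.

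Over all genes, leaving out each library in turn gave 846 to 2474 genes passing, 377 to 1069 higher and 469 to 1409 lower, with 41 to 113 higher and 49 to 130 lower by at least 2-fold. The lowest totals came without hyperoxic library 5 and the highest without room-air library 3. The sex covariate left 39 genes, 20 higher and 19 lower, 13 and 7 of them by 2-fold. The length slope left 55 (18 and 37, 4 and 7 by 2-fold), and both covariates together left 2 (2 and 0, 1 and 0 by 2-fold), 1 of them Hey2. The Myl7 covariate left 88 (22 and 66, 7 and 20 by 2-fold), and the Y-rich libraries gave 21 (13 and 8, 12 and 6 by 2-fold). Among the genes lower by at least 2-fold, DESeq2 gave 132 and the fit of all 20 libraries 137 against 86. DESeq2 and voom with quality weights gave 3212 and 2987 genes in all. At an unadjusted p under 0.05 there were 4931 genes. The causes were not tested.

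The labels number the mice within each group and do not say that a number joins 2 mice. Deviations of same-numbered libraries (1, 2, 4 and 5) correlated at 0.0278, -0.0614, 0.0584 and 0.0738, which gives no sign of pairing. With the replicate number as a block 1274 genes passed, 578 higher and 696 lower. Of the 4 hyperoxic libraries with a same-numbered partner, only number 4 correlated best with it.

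The sign of the log2 difference turned for some named genes. They include 3 that had passed under the length slope (Zc3h11a, Txn1 and Tnnc1) and 3 under both covariates (Txn1, Atp5e and Tnnc1). Under the length slope the log2 difference was -0.085 for Zc3h11a, 0.082 for Cdkn1a, 0.35 for Nqo1, -0.17 for Vegfa, 0.14 for Myl2, 0.0038 for Txn1, 0.052 for Tnnc1 and -0.0091 for Csf1r. Under both covariates it was 0.30 for Nqo1, -0.17 for Vegfa, 0.084 for Myl2, 0.013 for Txn1, 0.064 for Atp5e and 0.042 for Tnnc1. Nppb turned to -0.065 with the block, -0.15 with sex class, -0.012 with Myl7 and -0.14 in the Y-rich libraries. With voom quality weights Cdkn1a was at 0.023 and Nqo1 at 0.043, and without the 3 libraries apart at 0.027 and 0.038. With 1 library left out they ranged from -0.10 to 0.048 for Cdkn1a, from -0.12 to 0.095 for Nqo1 and from -0.0024 to 0.098 for C1qa.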
